A study of Mus musculus with 8 samples.

Results

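The genes described are 10 ligands of the TNF superfamily, namely Lta, Ltb, Tnf, Tnfsf11, Cd40lg, Tnfsf8, Tnfsf10, Tnfsf14, Fasl and Tnfsf4. They were chosen by name from the family, with earlier results of these data known. Each matched 1 of the 47069 Ensembl genes present in both deposited tables. All 10 had at least 1 FPKM (fragments scaled to gene length and to library depth) in at least 4 of the 8 libraries and entered the test, among 12273 genes in all. The samples were regulatory T cells (Tregs) sorted from lymph nodes of C57BL/6 mice, 6 to 8 weeks old, with 2 reporter alleles, 35EbiT and the Blimp1-GFP knock-in (KI). After bead enrichment of CD4 T cells, both populations were gated as CD25+ with low CD62L. Within that gate the 4 Ebi3-Treg libraries came from cells that were Thy1.1+ and lacked Blimp1, and the 4 Blimp1-Treg libraries from cells that were Blimp1+ and lacked Thy1.1. Thus both populations carried both reporter alleles and differed in which reporter was on. The labels do not say how the 35EbiT allele was built, whether animals were pooled, or whether each replicate is another animal. Every p-value therefore refers to the spread among these libraries, and that spread may be technical.

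TNF superfamily ligands are mostly type II membrane proteins that assemble as trimers and act on the cell they touch, and several are also released as soluble trimers. Receptor binding recruits TRAF adaptors or death domain proteins, which leads to NF-kappa B signalling or to cell death. In lymph nodes, lymphotoxin and RANK ligand are known for organising stroma, CD40 ligand for licensing B cells and dendritic cells, and Fas ligand and TRAIL for killing activated cells.

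Depth, recovered from the steps between low values, was such that in a 1 kb gene each read added 0.0320 to 0.0750 FPKM, depending on the library. Defining Treg markers were present in every library, with Foxp3 at 182 to 375 FPKM (Ebi3-Treg) and 184 to 406 FPKM (Blimp1-Treg). None of the 7 Treg markers passed limma's test, which called 6.29% of all genes tested, and 1 of them, Cd3e, had an unadjusted p under 0.05. All 7 log2 fold changes were negative. With the replicate block 3 markers were lower in Ebi3-Treg, Cd3e (-0.45, adjusted p = 0.00876), Ctla4 (-0.76, 0.0115) and Tnfrsf18 (-0.36, 0.0253). That block called 8.94% of all genes tested lower. The libraries numbered 1 held transcripts of B cells, where 10 B cell markers summed to 245 FPKM (Ebi3-Treg 1) and 174 FPKM (Blimp1-Treg 1) against 23.9 to 39.4 FPKM in the other 6. The libraries numbered 2 stood apart in several ligands, as given below. The count of called ligands is therefore also given without them.

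Of the 10 ligands, 5 were higher in Ebi3-Treg, 0 were lower and 5 did not pass the test (limma with Benjamini-Hochberg adjustment over all genes tested, adjusted p under 0.05). Lta, Tnfsf11, Cd40lg, Tnfsf14 and Ltb were the ones that rose. Among all genes tested 3.37% were called higher and 2.93% lower, 6.29% in all. The log2 fold change (Ebi3-Treg minus Blimp1-Treg, of FPKM + 1, which understates changes of low genes) was positive for all 10 ligands, with a median of 1.22, against a median of 0.07 and 59.2% positive over all genes tested. The same 5 ligands were called without both libraries numbered 1, without both numbered 2, and in replicates 3 and 4 alone. In these settings 1970, 1962 and 1347 of the 12273 genes were called, against 772 in the main test. The count of called ligands was 3 without the filter on low values and 3 to 5 when each library was left out in turn. Over all genes, 420 of 40415 were called without the filter, and 341 to 771 of 12273 with a library left out. In 6 ligands, the called ones and Tnfsf8, every Ebi3-Treg library lay above every Blimp1-Treg library, which held for 6.63% of all genes tested. A log2 fold change of at least 1 was reached by 6 ligands (Lta, Tnfsf11, Cd40lg, Tnfsf14, Tnfsf4 and Tnfsf8) and, in either direction, by 6.04% of all genes tested.

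**Figure D1:**
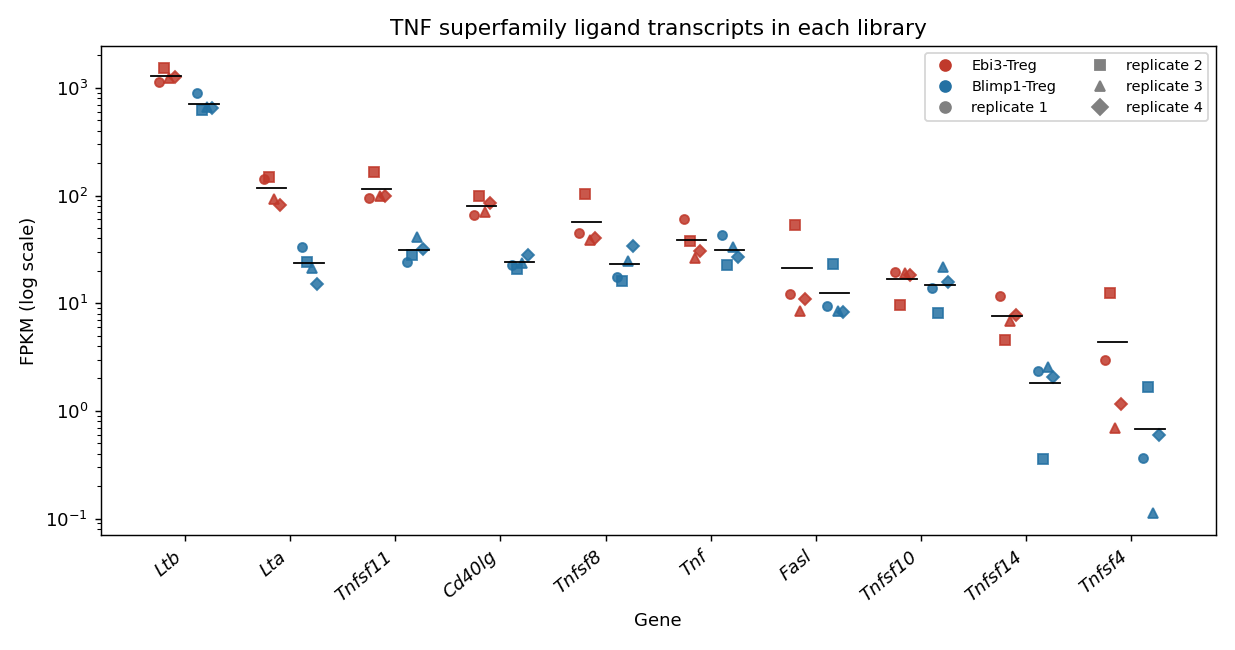
FPKM of the 10 ligands in each library on a log axis, with Ebi3-Treg in red, Blimp1-Treg in blue, a marker shape for each replicate number and a black line at the mean of 4 libraries. Ltb lies far above the others in both populations, Lta, Tnfsf11 and Cd40lg are separated between the populations, and Tnf, Fasl and Tnfsf10 overlap.

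Levels of the ligands, which FPKM sets on a scale per length, spanned more than the differences between populations. Ltb was the highest in every library and made up 70.6% to 77.2% of the summed FPKM of the 10 ligands in Ebi3-Treg and 79.1% to 84.2% in Blimp1-Treg. In Ebi3-Treg the order by mean was Ltb, Lta, Tnfsf11, Cd40lg, Tnfsf8, Tnf, Fasl, Tnfsf10, Tnfsf14 and Tnfsf4, and apart from Ltb and Lta each neighbouring pair overlapped in range. In Blimp1-Treg the order was Ltb, Tnf, Tnfsf11, Cd40lg, Lta, Tnfsf8, Tnfsf10, Fasl, Tnfsf14 and Tnfsf4. There, the neighbours that did not overlap were Ltb and Tnf, and Fasl and Tnfsf14. By mean, Lta thus stood next to Ltb in Ebi3-Treg, although it exceeded Tnfsf11 in only 1 Ebi3-Treg library. In Blimp1-Treg its mean was below those of Tnf, Tnfsf11 and Cd40lg. There its range overlapped that of each of them and that of Tnfsf8. The summed FPKM of the ligands other than Ltb was 361 to 634 in Ebi3-Treg and 145 to 177 in Blimp1-Treg.

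Lta, Tnf and Ltb lie next to each other on chromosome 17, in the order Ltb, Tnf, Lta between Lst1 and Nfkbil1 (RefSeq, GRCm38.p6), and are read from their own promoters. The 250 bases before the annotated start of each are shown, because these neighbours differed in how they changed, and those of Tnfsf11, which has no other ligand gene among its neighbours, and Tnfsf14, which lies beside Cd70, because both rose. They are from RefSeq, build GRCm38.p6, with Lta at chr17:35205352-35205601 (minus strand), Tnf at chr17:35202008-35202257 (minus strand), Ltb at chr17:35194257-35194506 (plus strand), Tnfsf11 at chr14:78308044-78308293 (minus strand) and Tnfsf14 at chr17:57194182-57194431 (minus strand). Each runs 5′ to 3′ on the strand of the gene, and capitals mark every match to the TATA box, AP-1, kappa B, Blimp-1 and TCF/LEF motifs that are spelled out after the sequences, each searched on both strands.
Lta: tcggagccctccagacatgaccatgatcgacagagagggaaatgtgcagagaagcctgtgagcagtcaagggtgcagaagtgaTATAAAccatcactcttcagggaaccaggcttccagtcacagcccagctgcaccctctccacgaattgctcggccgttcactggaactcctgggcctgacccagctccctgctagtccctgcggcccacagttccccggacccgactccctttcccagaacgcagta
Tnf: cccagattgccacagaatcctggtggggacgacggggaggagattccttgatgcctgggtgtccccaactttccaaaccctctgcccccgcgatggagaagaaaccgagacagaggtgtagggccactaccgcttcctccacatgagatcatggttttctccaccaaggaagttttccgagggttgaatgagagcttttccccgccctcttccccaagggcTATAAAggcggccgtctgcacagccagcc
Ltb: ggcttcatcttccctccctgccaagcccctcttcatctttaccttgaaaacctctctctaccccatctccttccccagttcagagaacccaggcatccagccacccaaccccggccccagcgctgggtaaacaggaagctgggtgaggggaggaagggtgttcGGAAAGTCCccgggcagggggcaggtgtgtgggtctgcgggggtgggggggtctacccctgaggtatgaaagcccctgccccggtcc
Tnfsf11: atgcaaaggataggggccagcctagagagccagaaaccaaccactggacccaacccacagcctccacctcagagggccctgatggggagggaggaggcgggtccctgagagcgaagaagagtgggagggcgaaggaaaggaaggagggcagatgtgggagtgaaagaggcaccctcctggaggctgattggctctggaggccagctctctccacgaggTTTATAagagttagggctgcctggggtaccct
Tnfsf14: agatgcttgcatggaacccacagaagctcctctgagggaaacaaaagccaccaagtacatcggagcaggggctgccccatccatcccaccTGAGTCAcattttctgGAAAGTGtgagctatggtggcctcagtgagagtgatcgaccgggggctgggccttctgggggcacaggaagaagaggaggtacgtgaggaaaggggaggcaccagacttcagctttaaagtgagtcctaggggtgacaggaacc

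In these windows the TATA box motif, TATAAA, was found in 3 of the 8 ligands with an entry, at position -29 from the start in Tnf, at -32 in Tnfsf11, where it is read on the opposite strand, and at -167 in Lta. It was found in 12.4% of the 32851 promoter windows of the same length. The kappa B motif, GGNNTTTCC, was found in Ltb at -87 and in 4.93% of all windows. The AP-1 motif, TGANTCA, was found in Tnfsf14 at -160 and in 6.75% of all windows. The core of the Blimp-1 motif, GAAAGTG, was found in Tnfsf14 at -144 and in 4.01% of all windows. The core of the TCF/LEF motif, CTTTGAA, was found in 0 of the 8 and in 4.46% of all windows. The core of NFAT sites, GGAAA, which is not in capitals and which overlaps the kappa B match of Ltb and the Blimp-1 match of Tnfsf14, was found in all 8 and in 55.6% of all windows. These are matches of letters in a short window and not measured binding. Cd40lg and Tnfsf4 are named only.

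Lta, which encodes lymphotoxin alpha, a secreted trimer or a partner of lymphotoxin beta at the membrane, had the largest log2 fold change of the 10 at a pseudocount of 1. At a pseudocount of 0.01 that of the low Tnfsf4 was larger (2.34 against 2.32). Lta was at 142, 148, 93.6 and 81.4 FPKM in Ebi3-Treg 1 to 4 and at 33.5, 24.1, 21.3 and 15.0 FPKM in Blimp1-Treg 1 to 4. Every Ebi3-Treg library was above every Blimp1-Treg library by a wide margin, and in both populations replicates 1 and 2 were above 3 and 4. The log2 fold change was 2.27 (SE 0.16, limma adjusted p = 0.000455). Split by table, it was 2.31 (replicates 1 and 2) and 2.23 (replicates 3 and 4). It was called under all 20 other settings, with log2 fold changes of 2.17 to 2.38.

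Ltb, which encodes lymphotoxin beta, the chain that anchors the heterotrimer in the membrane and lets it bind the lymphotoxin beta receptor, rose less. It was at 1132, 1525, 1225 and 1251 FPKM in Ebi3-Treg 1 to 4 and at 893, 624, 667 and 657 FPKM in Blimp1-Treg 1 to 4. The populations did not overlap. The libraries nearest to the other population were Ebi3-Treg 1, the lowest of its population, and Blimp1-Treg 1, the highest of its population. Both held B cell transcripts. This is a log2 fold change of 0.86 (SE 0.16, limma adjusted p = 0.0208), 0.81 in the first table and 0.90 in the second. The call was lost without Ebi3-Treg 2 (adjusted p = 0.0525), Ebi3-Treg 3 (0.0812), Ebi3-Treg 4 (0.0854), Blimp1-Treg 3 (0.0853) or Blimp1-Treg 4 (0.0937). It was also lost without the filter on low values (0.0541) and with libraries scaled by the median of ratios (0.0503).

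Tnf, which encodes the inflammatory cytokine TNF and lies between them, did not pass. It was at 60.7, 37.8, 26.1 and 30.6 FPKM in Ebi3-Treg 1 to 4 and at 43.1, 22.6, 33.0 and 26.9 FPKM in Blimp1-Treg 1 to 4. The populations overlapped, and the highest library of each was number 1. On the log2 scale the populations differed by 0.26 (SE 0.27, limma adjusted p = 0.729), by 0.60 in the first table and -0.07 in the second. The 6 other genes nearest to the cluster (Ddx39b, Atp6v1g2, Nfkbil1, Lst1, Aif1 and Prrc2a) had 0 called with limma, against 6.29% of all genes tested. Of these 6, 2 had an unadjusted p under 0.05, and their median log2 fold change was 0.40. Lst1, which encodes a leukocyte membrane protein, had the smallest p of them (log2 fold change 0.89, adjusted p = 0.0591, and 0.0120 once blocked by replicate number).

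Ratios of FPKM within a library do not depend on how that library was scaled, and they separated the populations. The log2 ratios that were tested, of FPKM + 1, do depend on it in part. With a pseudocount of 0.1 their differences were -1.46 and -2.05. Both ratios have Lta as denominator, so their differences restate the log2 fold changes above and are not separate evidence. The ratio of Ltb to Lta (FPKM per FPKM) was 7.95, 10.3, 13.1 and 15.4 in Ebi3-Treg 1 to 4 and 26.7, 26.0, 31.4 and 43.9 in Blimp1-Treg 1 to 4. All 4 Ebi3-Treg libraries thus had less Ltb per Lta. On the log2 scale of FPKM + 1 the ratio was 3.49 ± 0.41 in Ebi3-Treg and 4.90 ± 0.33 in Blimp1-Treg (SD, n = 4), a difference of -1.41, with an exact two-sided permutation p = 0.0286. The ratio of Tnf to Lta was 0.426, 0.256, 0.279 and 0.376 in Ebi3-Treg 1 to 4 and 1.29, 0.940, 1.55 and 1.80 in Blimp1-Treg 1 to 4. In every Ebi3-Treg library Lta exceeded Tnf, and in 3 of 4 Blimp1-Treg libraries Tnf exceeded Lta. The difference on the log2 scale was -2.01, from -1.59 ± 0.34 to 0.42 ± 0.39 (SD, n = 4, Ebi3-Treg first), with an exact two-sided permutation p = 0.0286. Both p-values are the smallest that 70 assignments of 8 libraries allow, and adjusted over the 2 ratios they stay at 0.0286. Within tables the differences were -1.50 and -1.32 for Ltb to Lta and -1.71 and -2.30 for Tnf to Lta, in replicates 1 and 2 and in 3 and 4. Permuted within tables, p was 0.0556 for both, the smallest that 36 arrangements allow.

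**Figure D2:**
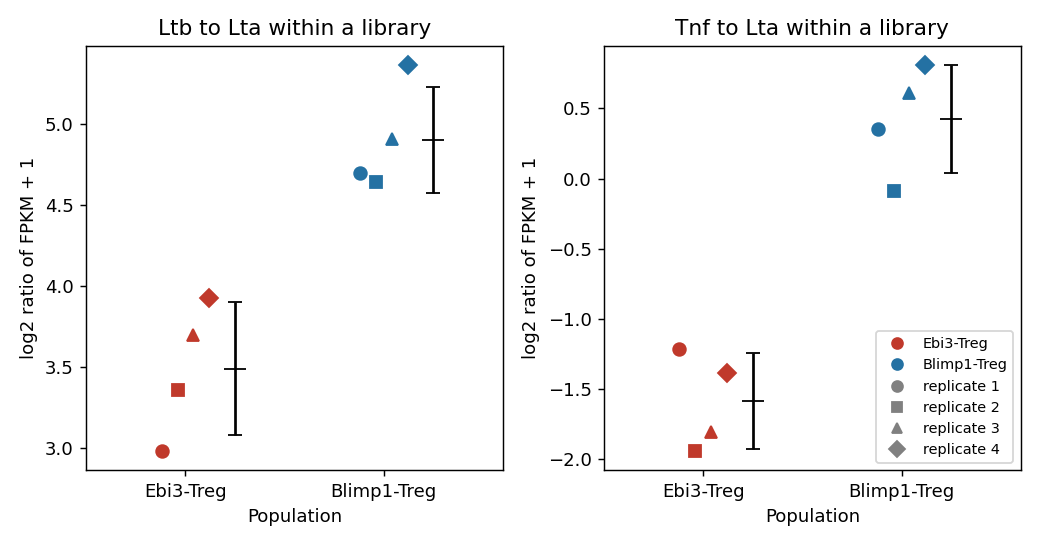
Log2 ratios of FPKM + 1 within each library, Ltb to Lta on the left and Tnf to Lta on the right, with a point for each library and the mean ± SD of 4 libraries in black. All 4 Ebi3-Treg points lie below all 4 Blimp1-Treg points in both panels.

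Tnfsf11 and Cd40lg, the ligands of RANK and CD40, were both higher in Ebi3-Treg. Tnfsf11, which encodes RANK ligand, a factor for osteoclasts and for lymph node and thymic stroma, was at 94.8, 166, 98.2 and 98.6 FPKM in Ebi3-Treg 1 to 4. In Blimp1-Treg 1 to 4 it was at 24.3, 27.8, 41.3 and 31.8 FPKM. Ebi3-Treg 2 was well above the other Ebi3-Treg libraries, which were close to each other, and no Blimp1-Treg library came near them. The log2 fold change was 1.82 (SE 0.24, limma adjusted p = 0.00503). Split by table, it was 2.23 (replicates 1 and 2) and 1.42 (replicates 3 and 4).

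Cd40lg, which encodes the ligand through which T cells activate B cells and dendritic cells, was at 66.7, 98.3, 69.98 and 84.6 FPKM in Ebi3-Treg 1 to 4 and at 22.7, 21.0, 23.9 and 28.0 FPKM in Blimp1-Treg 1 to 4. Its populations did not overlap, and its Blimp1-Treg libraries were close to each other, with an SD of 2.99 FPKM around a mean of 23.9 FPKM. This is a log2 fold change of 1.69 (SE 0.17, limma adjusted p = 0.00178), 1.84 in the first table and 1.54 in the second. Tnfsf11 and Cd40lg were called under all 20 other settings. Their log2 fold changes there were 1.42 to 1.98 and 1.53 to 1.77.

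**Figure D3:**
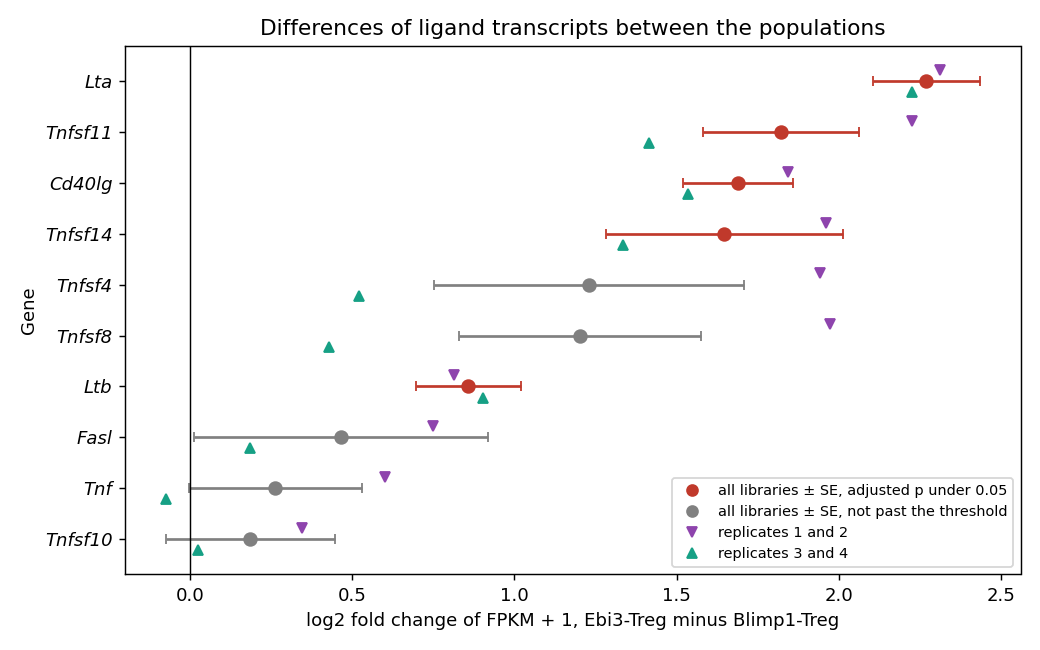
Log2 fold change of FPKM + 1 for the 10 ligands, Ebi3-Treg minus Blimp1-Treg, with SE bars for all 8 libraries (red where adjusted p was under 0.05) and triangles for each pair of replicates. The 5 called ligands run from 0.86 for Ltb to 2.27 for Lta, and the triangles of Tnfsf4 and Tnfsf8 lie farthest apart.

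The costimulatory ligands Tnfsf14, Tnfsf8 and Tnfsf4 all had positive log2 fold changes, and Tnfsf14 passed the test. Tnfsf14, which encodes LIGHT, a ligand of both HVEM and the lymphotoxin beta receptor, was at 11.6, 4.50, 6.82 and 7.79 FPKM in Ebi3-Treg 1 to 4 and at 2.36, 0.359, 2.55 and 2.05 FPKM in Blimp1-Treg 1 to 4. In both populations number 2 was the lowest, and the lowest Ebi3-Treg library still exceeded the highest Blimp1-Treg library. The value of Blimp1-Treg 2 rested on 13 reads, and the other libraries on 56 to 550. On the log2 scale the populations differed by 1.65 (SE 0.37, limma adjusted p = 0.0375), by 1.96 in the first table and 1.33 in the second. The call was lost without any library but Blimp1-Treg 1 (adjusted p of 0.0520 to 0.117), without the filter (0.0959) and without the table term (0.0512). It was also lost with pseudocounts of 0.1 (0.0677) and 0.01 (0.0775), at which the log2 fold change was larger, 2.21 and 2.31.

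Tnfsf8, which encodes CD30 ligand, did not pass although its populations did not overlap. It was at 45.4, 104, 38.2 and 40.6 FPKM in Ebi3-Treg 1 to 4 and at 17.4, 16.2, 24.5 and 34.3 FPKM in Blimp1-Treg 1 to 4. The gap was wide in replicates 1 and 2 and narrow in replicates 3 and 4, where Blimp1-Treg 4 nearly reached Ebi3-Treg 3. The log2 fold change was 1.20 (SE 0.37, limma adjusted p = 0.118). Split by table, it was 1.97 (replicates 1 and 2) and 0.43 (replicates 3 and 4). Tnfsf8 was the ligand with the smallest p for a difference between tables (unadjusted p = 0.0270, adjusted p = 1.0).

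Tnfsf4, which encodes OX40 ligand, was the lowest of the 10 in both populations by mean. It was at 2.97, 12.5, 0.692 and 1.16 FPKM in Ebi3-Treg 1 to 4, from 140, 466, 17 and 47 reads. In Blimp1-Treg 1 to 4 it was at 0.365, 1.67, 0.113 and 0.591 FPKM, from 21, 60, 4 and 16 reads. Number 2 was the highest library in each population, and the populations overlapped. It differed by 1.23 on the log2 scale (SE 0.48, limma adjusted p = 0.210), by 1.94 in the first table and 0.52 in the second. The value depended on the pseudocount, with 2.08 at 0.1 and 2.34 at 0.01, and on Ebi3-Treg 2, without which it was 0.74. Blocking by replicate number, which compares libraries of the same number, gave an adjusted p = 0.0397. With that block, 6 ligands were called higher and 0 lower, against 13.5% and 8.94% of all genes tested.

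Fasl and Tnfsf10, ligands known for killing cells through death receptors, did not pass. Fasl, which encodes Fas ligand, was at 12.2, 53.2, 8.51 and 10.9 FPKM in Ebi3-Treg 1 to 4 and at 9.52, 23.2, 8.44 and 8.24 FPKM in Blimp1-Treg 1 to 4. Both libraries numbered 2 lay above the other 6, which did not exceed 12.2 FPKM. That held for 19.2% of all genes tested and for no other ligand. Between populations the log2 fold change was 0.47 (SE 0.45, limma adjusted p = 0.713), and 0.23 without both libraries numbered 2.

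Tnfsf10, which encodes TRAIL, was at 19.6, 9.71, 19.1 and 18.3 FPKM in Ebi3-Treg 1 to 4 and at 13.9, 8.19, 21.5 and 15.6 FPKM in Blimp1-Treg 1 to 4. Here both libraries numbered 2 were the lowest of their population, and the populations overlapped throughout. The log2 fold change was 0.19 (SE 0.26, limma adjusted p = 0.830).

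**Figure D4:**
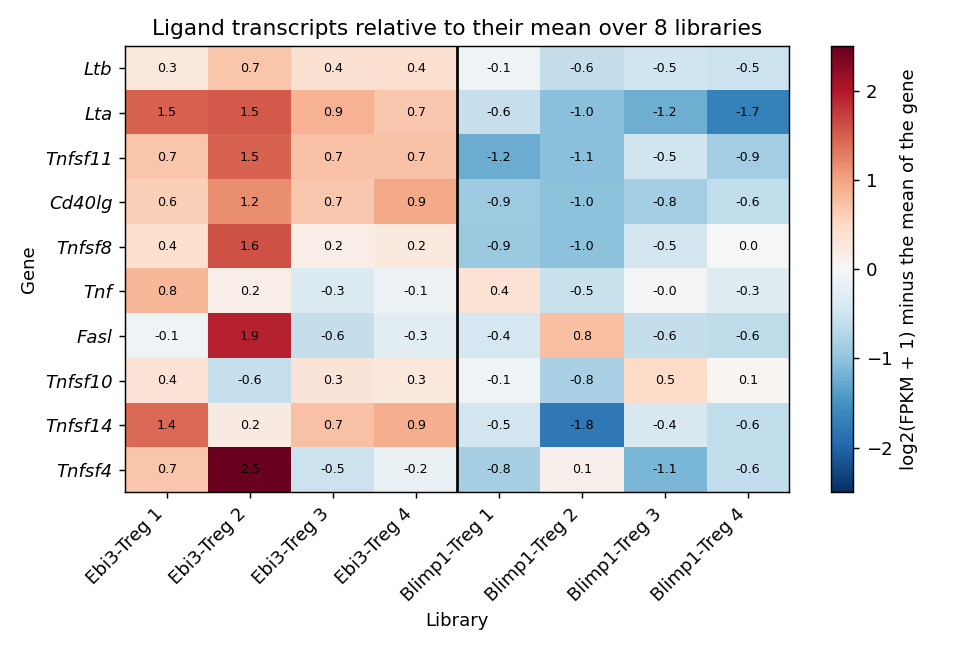
Log2(FPKM + 1) of each ligand minus its mean over the 8 libraries, with genes in rows, libraries in columns, red for above the mean and blue for below. The called ligands are red in all Ebi3-Treg and blue in all Blimp1-Treg columns, whereas Fasl is above its mean in the 2 libraries numbered 2 and below it in the other 6.

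Whether the differences depended on the table was tested as an interaction. Limma called 0 of the 10 ligands and 0 of all genes tested, with 1 ligand (Tnfsf8) and 203 genes (1.65%) at an unadjusted p under 0.05. The 0 calls do not show that the differences were equal in both tables.

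By the smallest root mean square difference of centred log2(FPKM + 1) values over the 8 libraries, the genes most like Lta were Pdlim1 (0.23), H2-Oa (0.23) and Pla2g4f (0.24). Those most like Ltb were Khk (0.10), Gm2237 (0.14) and Ccdc85b (0.15). Tnfsf11 was nearest to Eno3 (0.18), Ssbp2 (0.22) and Fhad1 (0.23), and Cd40lg to Dnah7a (0.11), Fhad1 (0.13) and Chn2 (0.15). For Tnfsf14 they were Scmh1 (0.24), Gm20091 (0.25) and Bcl2 (0.25). No ligand was among the genes nearest to another.

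The other 8 ligands of the superfamily were mostly too low to test. Tnfsf13b, which encodes the B cell survival factor BAFF, was at 5.88, 11.8, 10.2 and 10.46 FPKM in Ebi3-Treg 1 to 4 and at 3.09, 1.38, 6.99 and 6.73 FPKM in Blimp1-Treg 1 to 4, so the populations overlapped. Its log2 fold change was 1.06 (limma adjusted p = 0.102). It passed without both libraries numbered 2, at 0.60 (adjusted p = 0.0283). Tnfsf9, which encodes the ligand of 4-1BB, was at 3.30 ± 1.44 against 5.46 ± 1.94 FPKM (SD, n = 4, Ebi3-Treg first), with a log2 fold change of -0.59 (limma adjusted p = 0.338, and 0.0228 with the replicate block). It shares exons with Gm11110, as Tnfsf12 and Tnfsf13 do with Tnfsfm13, so their reads are uncertain. Cd70, Tnfsf12, Tnfsf13, Tnfsf15, Tnfsf18 and Eda stayed below 1 FPKM in every library. Tnfsf18, which lies between Tnfsf4 and Fasl, had 0 to 8 reads per library, and Cd70, the neighbour of Tnfsf14, had 1 to 10.

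Of the 13 receptors of the 10 ligands, 12 were tested, with a median log2 fold change of 0.38. Of these, 1 was higher, 1 lower and 10 did not pass, against 3.37% higher and 2.93% lower over all genes tested. Cd40, the receptor of CD40 ligand, was higher in Ebi3-Treg, at 17.9, 11.01, 21.2 and 12.1 FPKM in Ebi3-Treg 1 to 4 and 5.39, 0.567, 4.41 and 2.01 FPKM in Blimp1-Treg 1 to 4. The populations did not overlap. B cells also express Cd40, and their 10 markers summed to 245, 39.4, 30.4 and 35.0 FPKM in Ebi3-Treg 1 to 4 and to 174, 29.6, 23.9 and 26.9 FPKM in Blimp1-Treg 1 to 4. Their part in the Cd40 difference was not tested. The difference was 2.16 on the log2 scale (SE 0.45, limma adjusted p = 0.0302). Tnfrsf1b, which encodes TNFR2, a receptor of TNF and lymphotoxin alpha that is abundant on Tregs, was lower. It was at 331, 262, 417 and 403 FPKM in Ebi3-Treg 1 to 4 and 930, 456, 956 and 1053 FPKM in Blimp1-Treg 1 to 4, again without overlap. The difference was -1.22 on the log2 scale (SE 0.22, limma adjusted p = 0.0180). Tnfrsf11a, the receptor of RANK ligand (1.08, adjusted p = 0.165), and Fas, the receptor of Fas ligand (0.66, adjusted p = 0.216, and 0.00284 with the replicate block), did not pass. With the replicate block 4 receptors were higher and 1 lower, against 13.5% and 8.94% of all genes tested. Cd40 was lost without any library but Blimp1-Treg 1 or 2 (0.0622 to 0.112), with pseudocounts of 0.1 (0.0542) and 0.01 (0.0600) and without the filter (0.0709). Tnfrsf1b did not keep its call when Ebi3-Treg 2, 3, 4 or Blimp1-Treg 3, 4 was left out (0.0548 to 0.0809), without the table term (0.0640) and with quantile normalization (0.0538).

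**Figure D5:**
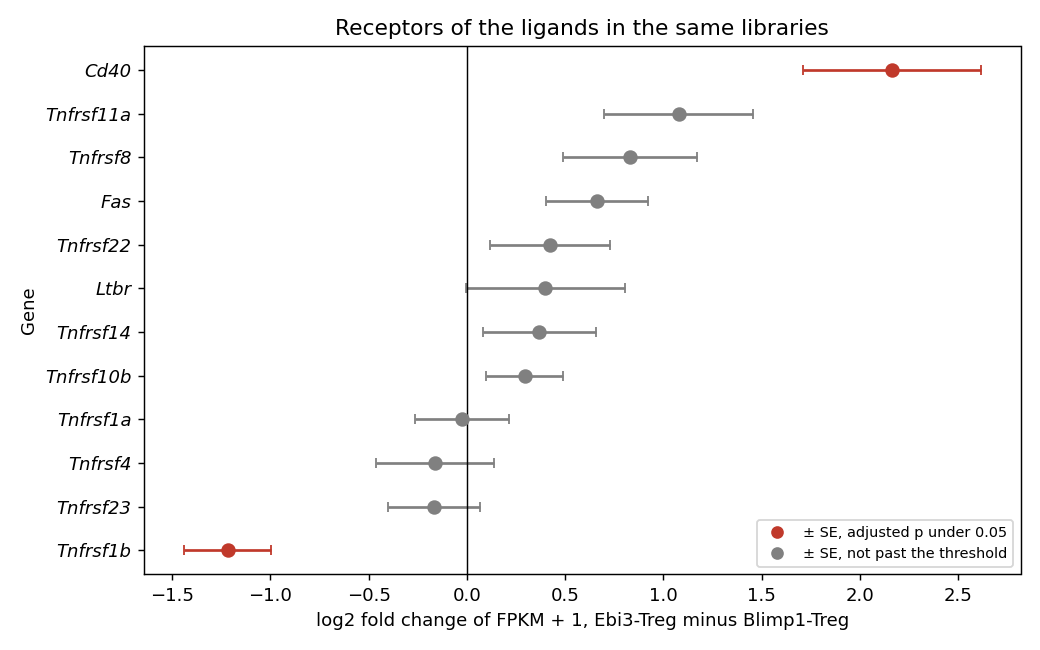
Log2 fold change of FPKM + 1, Ebi3-Treg minus Blimp1-Treg, with SE bars, for the 12 receptors tested, red where adjusted p was under 0.05. Cd40 at 2.16 and Tnfrsf1b at -1.22 lie at the ends, and the other 10 are between them in grey.

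Among 16 genes of TNF receptor signalling 1 was higher, 0 lower and 15 did not pass, against 3.37% higher and 2.93% lower over all genes tested. The median log2 fold change of the 16 was 0.04. Tnfaip3, which encodes the NF-kappa B inhibitor A20, was higher in Ebi3-Treg, by 0.69 (SE 0.15, limma adjusted p = 0.0360). It was at 855, 594, 1557 and 1520 FPKM in Ebi3-Treg 1 to 4 and at 458, 383, 1008 and 994 FPKM in Blimp1-Treg 1 to 4. Levels of replicates 3 and 4 exceeded those of 1 and 2 in both populations, so the populations overlapped across tables and not within them. The call was lost without the table term (adjusted p = 0.608), without the filter (0.104), with quantile normalization (0.101) and without any library but Ebi3-Treg 1 or 2 (0.0711 to 0.131). The adaptor genes Traf1 (0.44, limma adjusted p = 0.134, and 0.0414 with the replicate block) and Traf5 (0.37, 0.169, and 0.0220) came next. With the ubiquitin ligase gene Birc2 (0.33, 0.211, and 0.0283), they passed only with that block. With the replicate block 5 genes of this list were higher and 2 lower, against 13.5% and 8.94% of all genes tested.

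Of 13 genes for ligand shedding and mRNA decay, limma called 0, against 6.29% of all genes tested. Of these 13, 1 had an unadjusted p under 0.05, and their median log2 fold change was -0.03. Zfp36l1, which encodes a protein that binds AU-rich elements, differed by 0.61 on the log2 scale (adjusted p = 0.110, and 0.00387 with the replicate block), and Zfp36l2 had 0.61 (0.299, and 0.00406). Adam17, which encodes the protease that releases TNF, had -0.34 (0.434, and 0.0248), and Zc3h12a, which encodes the RNase regnase-1, 0.54 (0.532, and 0.0107). With the replicate block 3 were higher and 1 lower, against 13.5% and 8.94% of all genes tested.

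Markers of other cells that such a sort could hold moved with the populations in part. In bulk libraries fewer cells of a type and less RNA per cell cannot be told apart. The 8 markers of conventional CD4 T cells summed to 1096 to 2473 FPKM (Ebi3-Treg) and 248 to 494 FPKM (Blimp1-Treg). Of 7 tested 3 were higher (Ccr7, Tcf7 and Lef1) and 0 lower, against 3.37% and 2.93% of all genes tested. With the replicate block all 7 were higher, against 13.5% of all genes tested. The part of such cells in the higher Lta, Tnfsf11, Cd40lg, Tnfsf14 and Ltb was not tested. Of these markers, Ccr7, Tcf7 and Lef1 can also be expressed by Tregs. All 7 tested had positive log2 fold changes. Il2 was at 3.86, 10.2, 1.90 and 1.27 FPKM in Ebi3-Treg 1 to 4. In Blimp1-Treg 1 to 4 it was at 0.391, 0.896, 0.227 and 0.833 FPKM, without overlap. Its log2 fold change was 1.48 (limma adjusted p = 0.0687, and 0.0250 with the replicate block). Lef1 lost its call when replicate 3 or 4 of either population was left out (0.0635 to 0.0977), without the filter (0.0781) and without the table term (0.103), and Ccr7 without the table term (0.0523). The 9 markers of CD8, NK and gamma delta T cells summed to 21.9 to 129 against 68.4 to 139 FPKM, and the 10 of myeloid and dendritic cells to 19.2 to 122 against 19.8 to 41.9 FPKM, Ebi3-Treg first. None of the 6 and 3 tested in those lists was called with limma. The unadjusted p was under 0.05 for Nkg7 in the first and for Lyz2 in the second. With the replicate block Lyz2 was higher in Ebi3-Treg (adjusted p = 0.0160), as was Cd79b among the B cell markers (0.0135). No marker of these lists was at 0 in all 8 libraries.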

How the data were processed

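Transcripts were measured by RNA sequencing of 4 Ebi3-Treg and 4 Blimp1-Treg libraries; per the labels' protocols the kit was SMART-Seq v4 Ultra Low Input. The submitters' processing notes name TopHat2 2.0.12, HTSeq 0.6.1, Bowtie2 2.2.3 and the build mm9. The role of each, the annotation and any use of strand are not stated in these sources. FPKM values were deposited by the authors in 2 tables, replicates 1 and 2 in the first and 3 and 4 in the second. The tables may have been normalized separately, which bears on any level compared between them.

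Ensembl genes in both tables (47069, of which 46488 had a symbol in GENCODE M21) were used, and 640 and 612 features without an Ensembl identifier were left out. Depth was estimated as the total at which the largest number of low values became whole reads, 13.3 to 31.3 M fragments per library. With reference exon lengths, 34.9% to 45.5% of the values in a library then came out whole within 0.01 reads; the gene lengths the authors used are not known. Reads of Tnfsf4, Tnfsf18 and Cd70 used the reference exon length, and those of Tnfsf14 the shortest length that made reads whole. These reads and limits cover counting error only, since the kit amplifies cDNA. No ligand of the 10 shares exons with another annotated gene.

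The test took genes that reached 1 FPKM in 4 or more of the 8 libraries. The model, in limma 3.58.1 (R 4.3.3), had log2(FPKM + 1) as response, terms for population and table, and a variance trend. Tests were two-sided with Benjamini-Hochberg adjustment. The script was tested on simulated data. Ratios were tested by exact permutation in Python 3.11.15. Other settings were pseudocounts, filters, scalings, no table term, no variance trend, the replicate number as a block and libraries left out. Replicates 3 and 4 alone were added after the data were seen. The genes and lists were chosen with earlier results of these data known. The rule for named genes took all ligands, of each further list the 4 genes with the smallest unadjusted p, of each marker list also the 3 highest, and for each called ligand the 3 genes most like it. Marker lists are given by their sums and by fewer names than that. The result of 1 marker list is not reported here.

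Deviations from the population means correlated between same-numbered libraries, with r = 0.624, 0.886, 0.534 and 0.543 across genes for numbers 1 to 4. Crossed pairs of numbers 3 and 4 correlated slightly more than the matched ones (r = 0.564 and 0.610). The values thus pair the libraries numbered 1 and those numbered 2, and do not pair those numbered 3 and 4. This pairing comes from the data and not from the labels. For numbers 3 and 4 the replicate block rests on the number alone. Blocked values or counts are given where the block changes the call of a named gene.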

Additional observations from a re-analysis of the deposited data

Results flagged for a closer look

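Of 28 groups of 4 values examined (the 10 ligands, Tnfsf9, Tnfsf13b and the 2 ratios in each population), 6 held a library far from its group, where chance flags about 1 in 20 groups. Of these 6, 5 were libraries numbered 2. Fasl was at 53.2 FPKM in Ebi3-Treg 2 against 8.51 to 12.2 FPKM in the other 3, and at 23.2 FPKM in Blimp1-Treg 2 against 8.24 to 9.52 FPKM. In Ebi3-Treg 2, Tnfsf11 was at 166 FPKM against 94.8 to 98.6 FPKM and Tnfsf8 at 104 FPKM against 38.2 to 45.4 FPKM. Tnfsf10 was low there, at 9.71 FPKM against 18.3 to 19.6 FPKM. The remaining library was Blimp1-Treg 1, with Ltb at 893 FPKM against 624 to 667 FPKM.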

How the results depend on the processing

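The count of called ligands was 5, and all calls under every other setting were in the direction of higher in Ebi3-Treg. It was 3 without the filter on low values, 3 to 5 when each library was left out in turn, and 6 with the replicate block. Lta, Tnfsf11 and Cd40lg were called under all 20 other settings, Ltb under 13 of 20 and Tnfsf14 under 8 of 19. With a filter of 5 FPKM, Tnfsf14 and Tnfsf4 were not tested. Of the ligands that did not pass, Tnf turned to -0.073 in replicates 3 and 4 alone and Tnfsf10 to -0.035 without Ebi3-Treg 1 (up to 0.34 when other libraries were left out), and the cause was not tested. Over all genes the count of 772 became 420 without the filter (40415 genes tested), 441 without the table term, 2752 with the replicate block, 1970 without both libraries numbered 1, 1962 without both numbered 2, 1347 in replicates 3 and 4 alone and 341 to 771 when each library was left out. The ratio differences kept their direction, and with 1 library left out both kept an exact permutation p = 0.0286. They did not pass in the designs that follow. For Ltb to Lta and Tnf to Lta they were -1.41 and -2.01 with the replicate block (p = 0.125), -1.41 and -2.01 when permuted within tables (p = 0.0556), -1.31 and -2.15 without both libraries numbered 1 and -1.45 and -2.06 without both numbered 2 (p = 0.1), each p the smallest its exact design allows. Among the 10 ligands the replicate block changed the call of Tnfsf4 and no other, and of the other ligands it changed that of Tnfsf9 (adjusted p = 0.0228).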
